A study of Mus musculus with 8 samples.

Results

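Antibodies to 2 segments of the T cell receptor (TCR) of mouse double positive thymocytes were compared directly: the 2 arrays titled Vbeta5 against the 2 arrays titled Valpha2, which are 4 of the 8 arrays of the series. The arrays were chosen by their titles and no measured value entered the choice. Each array carries total RNA from double positive thymocytes. The other 4 arrays are 2 titled control and 2 titled overnight control, and every group has an array numbered 1 and an array numbered 2. The sources used here do not give strain, genotype, age, antibody clone, dose, duration or the number of animals per array, so the receptor segment and any difference in antibody, dose or duration cannot be told apart. No label states that arrays of a group came from separate animals or cultures. The p-values therefore cover only the spread between these arrays. The 2 arrays of Vbeta5, of control and of overnight control differed in sex-linked transcripts, as given below, so they were not repeats of 1 RNA sample. The 2 Valpha2 arrays did not differ in this way, and their spread may be technical.

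Double positive thymocytes carry both coreceptors, CD4 and CD8, and have just assembled a TCR from an alpha and a beta chain. Vbeta5 and Valpha2 are variable segments of these chains, and an antibody to either binds the receptor of cells that use that segment. A receptor signal at this stage normally induces immediate early transcription factors of the Egr and Nr4a families, shuts off the V(D)J recombinase genes Rag1 and Rag2, which ends further rearrangement of the alpha chain, and starts the programme of positive selection. A very strong signal can lead to cell death instead.

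Among the genes higher with Vbeta5 than with Valpha2 were the transcription factor genes Egr1 and Egr2 and the surface protein genes Itm2a, Cd2 and Cd53. Among the lower ones were the recombinase gene Rag2, the coreceptor gene Cd8a, the survival gene Bcl2l1 and the transcription factor gene Ets2. Of 8281 probe sets tested, 23 passed the threshold, an adjusted p under 0.05 by limma with Benjamini-Hochberg adjustment, which is 0.278% of those tested. Of these 8 were higher with Vbeta5 (0.0966%), standing for 8 named genes, and 15 were lower (0.181%), standing for 13 named genes. At 2-fold or more, with no test, 3.19% of all probe sets were higher and 2.56% lower. Differences of the 8 ranged from 2.90-fold to 6.70-fold and those of the 15 from 2.51-fold to 10.8-fold. Both Vbeta5 arrays lay beyond both Valpha2 arrays in all 23, as they did for 21.8% (higher) and 18.6% (lower) of all tested probe sets. The deposited value is an array signal on a linear scale, tested as log2(signal + 17), so a fold change understates the change of dim probe sets.

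That count depended on the arrays and on the model. It was 0 in a fit of the 4 compared arrays alone (782 probe sets with an unadjusted p under 0.05 by limma), 0 without the variance trend (631), 0 with the arrays set to a common median (552), and 90 or 338 with the array number as a replicate block, over 8 or 4 arrays. It was also 0 without Valpha2 array 1 (347 probe sets with an unadjusted p under 0.05), without Vbeta5 array 2 (551), without control array 1 (572) and without control array 2 (575), against 678 in all 8 arrays, which is 8.19% of those tested. It was 16 without Vbeta5 array 1 and 21 without Valpha2 array 2, and 30 or 31 without an overnight control array. Most of the 23 did not pass without Vbeta5 array 1, nor without Valpha2 array 2, and other probe sets took their place. Without Valpha2 array 2, most of those that passed were higher. The control and overnight control arrays enter the estimate of the spread. They also enter the choice of the added 17 and of the probe sets tested, but not the difference itself. Of the 23 probe sets, 0 turned in sign under any of these settings.

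**Figure D1:**
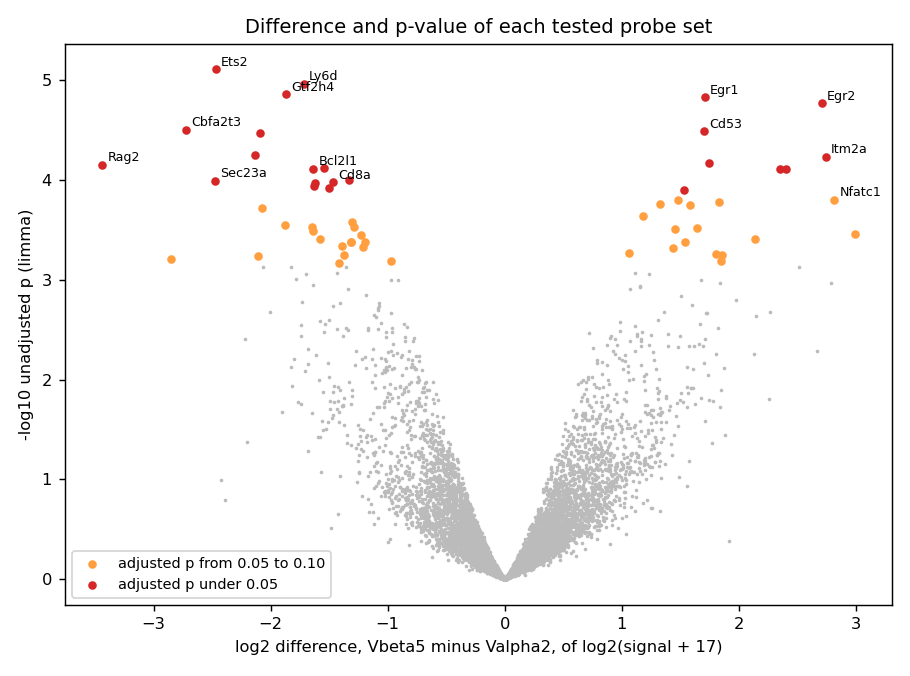
Each point is 1 of 8281 tested probe sets, with the log2 difference of Vbeta5 minus Valpha2 on the x axis and -log10 of the unadjusted limma p on the y axis. The 23 red points passed an adjusted p of 0.05 and the 34 orange points had one from 0.05 to 0.10; Rag2 lies farthest to the left and Egr2 and Itm2a lead the red points on the right.

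The arrays differed in 2 ways that the titles do not name. Xist, the transcript of the inactive X chromosome, had a signal of 1038.4 on Vbeta5 array 2 and 6.5 on Vbeta5 array 1, against 35.6 and 15.9 on Valpha2 arrays 1 and 2. Eif2s3y, a gene of the Y chromosome, had the reverse: 8.3 on Vbeta5 array 2 and 274.1 on Vbeta5 array 1, with 478.8 and 411.5 on the Valpha2 arrays. Vbeta5 array 2 thus carried RNA of the female pattern and the other 3 compared arrays RNA of the male pattern. Among the arrays numbered 2, the overnight control (Xist at 1771.6) and the control (2237.9) had the female pattern too, so Valpha2 array 2 stood apart from the arrays with which it shares a number. These genes were chosen after their values were seen. For the Gapdh control probe sets, the excess of 3' over 5' signal (log2), which grows as RNA breaks down, was 1.72 on Valpha2 array 1, 0.484 on Vbeta5 array 1, -0.198 on Vbeta5 array 2 and -0.258 on Valpha2 array 2. The part of either difference in the results below was not tested, and values within each array number stand beside the main ones.

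**Figure D2:**
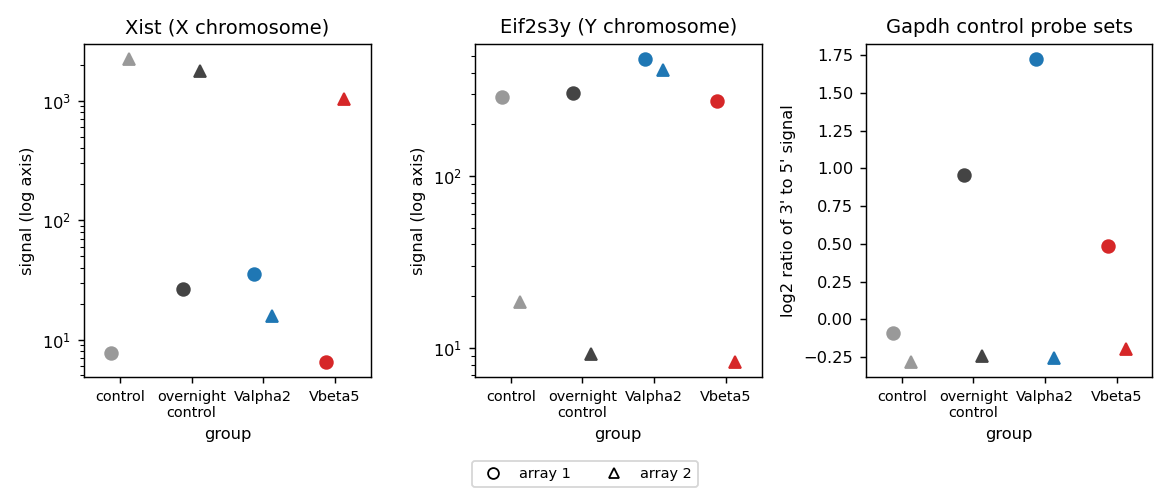
Signal of Xist and of Eif2s3y (log axes) and the log2 excess of 3' over 5' Gapdh signal for each of the 8 arrays, by group, with circles for array 1 and triangles for array 2. Vbeta5 array 2 has high Xist and low Eif2s3y while both Valpha2 arrays have the opposite, and Valpha2 array 1 has the highest excess, 1.72.

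Markers of the labelled cells were measured. Of 14 genes listed for double positive thymocytes 12 were on the array and all of these were tested. Cd8b1 had signals of 15079.8 and 12527.2 on Valpha2 arrays and 7644.4 and 3832.3 on Vbeta5 arrays. Ptcra, another of the 12, was dim, at 94.8 and 83.0 against 56.3 and 59.0. The summed signal of the 12 genes, most of it from Cd8b1, Dntt, Rag1, Thy1 and Cd8a, was 74756.3 and 56545.5 with Valpha2 and 36919.5 and 20218.3 with Vbeta5. In 10 of the 12 both Vbeta5 arrays lay below both Valpha2 arrays, as they did for 18.6% of all tested probe sets. The arrays overlapped for Cd3e, at 4669.3 and 2670.9 with Vbeta5 against 3421.7 and 3309.7 with Valpha2. They also overlapped for Cd3d, at 3891.8 and 3434.3 against 4508.2 and 3255.6. In bulk RNA, fewer cells of a type and less RNA per cell cannot be told apart. Of 31 tested marker genes in 8 lists of other cell types, 0 passed by limma and 5 had an unadjusted p under 0.05. Among all probe sets tested 8.19% had such a p. The dendritic and MHC class II list had a summed signal of 736.3 and 867.7 with Vbeta5 against 397.0 and 337.4 with Valpha2, over 6 genes, with overnight control arrays at 797.8 and 278.4. Of its 4 tested genes 3 were 2-fold or more higher with Vbeta5, against 3.19% of all probe sets tested. Their median was 1.17, and 2 of the 4 had an unadjusted p under 0.05 by limma. The B cell sum went the other way, at 3546.4 and 2814.9 against 4971.7 and 4840.2 over 8 genes, most of it Ighm. Its 6 tested genes were split, with 3 higher and 3 lower with Vbeta5. The macrophage list summed to 1035.7 and 977.8 against 677.3 and 728.7, with Lyz2 under 17 on every array. Its overnight control arrays were at 1390.3 and 615.6. Their part in the differences was not tested.

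For 17 of the 21 named genes that passed, RefSeq (GRCm38.p6) lists a transcription start. The 250 bases upstream of the start are printed for 3 genes that were higher and for Rag2, which was lower, so that the sequences ahead of genes that moved together can be seen side by side. Capitals mark matches, on either strand, to GCGNGGGCG (Egr), TGANTCA (AP-1), GGAAAA (NFAT), CANCTG (E-box), TGTGGT (Runx), CCGGAAG (Ets) and the CArG box bound by serum response factor. The motifs were chosen with the results known, and a match is a description of letters, not of binding.
Egr2, chr10:67537680-67537929, plus strand, the last of 5 starts listed: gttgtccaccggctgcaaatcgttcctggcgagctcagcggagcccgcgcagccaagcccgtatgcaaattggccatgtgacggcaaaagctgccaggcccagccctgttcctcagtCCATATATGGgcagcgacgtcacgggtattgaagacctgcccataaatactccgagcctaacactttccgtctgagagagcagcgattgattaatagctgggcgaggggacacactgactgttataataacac
Itm2a, chrX:107403361-107403610, minus strand: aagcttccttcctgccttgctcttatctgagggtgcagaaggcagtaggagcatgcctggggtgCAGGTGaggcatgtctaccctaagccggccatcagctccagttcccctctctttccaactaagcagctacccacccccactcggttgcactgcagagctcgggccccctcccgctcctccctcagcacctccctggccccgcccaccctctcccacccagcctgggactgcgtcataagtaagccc
Cd53, chr3:106790150-106790399, minus strand: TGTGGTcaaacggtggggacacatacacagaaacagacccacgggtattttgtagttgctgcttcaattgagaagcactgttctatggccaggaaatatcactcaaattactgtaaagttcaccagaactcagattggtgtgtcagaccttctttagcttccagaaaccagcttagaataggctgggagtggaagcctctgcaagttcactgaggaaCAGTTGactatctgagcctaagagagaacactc
Rag2, chr2:101624462-101624711, plus strand: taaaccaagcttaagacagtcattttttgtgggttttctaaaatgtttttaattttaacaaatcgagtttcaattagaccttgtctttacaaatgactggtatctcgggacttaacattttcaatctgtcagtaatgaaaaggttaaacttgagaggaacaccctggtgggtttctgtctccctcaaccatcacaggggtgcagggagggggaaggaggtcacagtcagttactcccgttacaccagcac
Capitals in Egr2 mark 1 CArG box, which 1.47% of all 32841 listed windows hold. Itm2a and Cd53 have 1 E-box each, a motif of 44.8% of all windows, and Cd53 has 1 Runx match (14% of windows). The Rag2 window holds 0 of these letters, which says nothing of the factors. The NFAT letters were in 20.4% of all windows, AP-1 in 6.75%, Ets in 6.91% and Egr in 4.7%. Over the 6 higher genes with a listed start, 3 had the Runx letters and 3 an E-box in at least 1 window, against 0 and 4 of the 11 lower genes. Over all genes these shares were 15.9% and 48.2%. A gene with more listed starts has more windows that can match, and the 6 higher genes had 12 windows and the 11 lower genes 15. By window, the Runx letters were in 25% and 0%, against 14% of all windows. An E-box was in 33.3% of the windows on either side, against 44.8% of all. These are counts of letters in few genes and no test was made.

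The immediate early genes carried the clearest rises. Egr1 and Egr2 are zinc finger transcription factors induced within minutes of a receptor signal through the MAP kinase pathway. Egr2 had signals of 2200.4 and 3141.1 on Vbeta5 arrays 1 and 2, against 279.8 and 535.5 on the Valpha2 arrays. Both Vbeta5 arrays lay far above both Valpha2 arrays and above all 4 control and overnight control arrays, of which the highest was 343.9. The difference was 2.71 ± 0.36 (SE) on the log2 scale (limma adjusted p = 0.0284). Egr1 stood at 2720.2 and 2716.8 against 720.4 and 934.1, so the Vbeta5 arrays hardly differed from each other. Its difference was 1.71 ± 0.22 (limma adjusted p = 0.0284).

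Of 30 tested immediate early genes 2 were higher with Vbeta5, 0 were lower and 28 did not pass. The median difference was 0.573, against 0.0228 over all probe sets tested. Unadjusted, 12 had a p under 0.05 and a higher signal (4.08% of all probe sets tested), and 0 a lower one (4.11%). This list and those below were chosen with earlier results of these data known, so their counts and medians add no separate evidence. Nab2, a corepressor that Egr factors induce and that restrains them, stood at 1718.8 and 1929.3 against 223.3 and 704.4, a difference of 2.14 (limma adjusted p = 0.0775). The phosphatase gene Dusp2, which switches MAP kinases off, differed by 1.46 (adjusted p = 0.0716 by limma). The nuclear receptor gene Nr4a1 had signals of 3275.5 and 5184.0 with Vbeta5 and 342.4 and 1444.9 with Valpha2. Its 95% interval ran from 1.33 to 3.69 on the log2 scale, although it did not pass (limma adjusted p = 0.102).

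In the lists of the TCR complex, NFAT and NF-kB no gene passed. Nfatc1, the NFAT family member whose own transcription is raised by NFAT, stood at 2634.5 and 2543.1 with Vbeta5 against 178.6 and 683.3 with Valpha2, a difference of 2.82 ± 0.49 (SE) that just missed the threshold (limma adjusted p = 0.0526). Of the 14 tested genes of NFAT and calcineurin 0 passed by limma, and the median was 0.00376. At an unadjusted p under 0.05, 1 was higher (Nfatc1) and 1 lower (Dyrk1a, at -1.13 on its brighter probe set). Of 31 genes of the TCR complex and its proximal kinases and adaptors 0 passed, and the median was -0.0466. Again 1 was higher and 1 lower at an unadjusted p under 0.05. These were the Src family kinase gene Fyn, at 0.61 (adjusted p = 0.458 by limma), and the kinase gene Tec, at -0.96 (adjusted p = 0.23 by limma). Of 16 NF-kB subunits and regulators 0 passed by limma, and the median was 0.122. At an unadjusted p under 0.05, 0 were higher and 1 was lower (Birc2, at -0.62 on its brighter probe set). Such a p was found for 8.19% of all probe sets tested, 4.08% on the higher side and 4.11% on the lower.

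Of the surface genes of selection and maturation, Itm2a, Cd2 and Cd53 were higher with Vbeta5. Itm2a, a membrane protein that marks thymocytes undergoing positive selection, had signals of 2349.1 and 3300.7 against 236.8 and 672.5. Its difference of 2.74 ± 0.42 (SE) was the largest among the 8 rises (limma adjusted p = 0.0407). Cd2, an adhesion molecule that helps the TCR signal, stood at 3484.9 and 4290.8 against 434.1 and 1176.2, a difference of 2.40 ± 0.38. The overnight control arrays of Cd2 were at 507.6 and 688.0, between the 2 Valpha2 arrays, and the control arrays at 2262.6 and 2085.2, so the Vbeta5 arrays lay above all of them. The tetraspanin gene Cd53 had 3958.6 and 5539.9 against 1238.7 and 1646.3 (1.70 ± 0.24 SE), and for this gene the Valpha2 arrays too lay above all control and overnight control arrays, the highest of which was 922.3.

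Of 31 tested genes of this list 3 were higher, 0 lower and 28 did not pass, with a median of 0.299, and 11 of the 31 had a difference below 0. The class I gene H2-K1 was among those just outside, at 2723.0 and 3684.6 against 1307.5 and 1199.7 (limma adjusted p = 0.0526). Its probe set can match several class I genes, and the other 2 tested H2-K1 probe sets differed by 0.69 and 0.67 with adjusted p-values over 0.7 by limma. Thy1, a surface protein of all thymocytes, was at 6050.7 and 1800.3 against 11437.9 and 6894.3 (-1.42, limma adjusted p = 0.368), with the 2 Vbeta5 arrays far apart. The chemokine receptor gene Ccr7, which guides mature thymocytes to the medulla, stood at 113.2 and 47.1 against 84.8 and 46.7, with an interval from -0.92 to 1.28.

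Inhibitory and costimulatory receptors had a median of 0.447 over 17 tested genes. None passed (0 by limma, 7 higher and 1 lower at an unadjusted p under 0.05, against 4.08% and 4.11% of all probe sets tested). Pdcd1, a gene for an inhibitory receptor of activated T cells, had signals of 552.7 and 1133.3 against 53.3 and 179.2, and the interval of its difference ran from 1.41 to 4.16 (limma adjusted p = 0.126). Cd5, a damper of TCR signalling that tracks its strength, stood at 4762.4 and 5331.9 against 869.7 and 2239.5 (1.84, limma adjusted p = 0.126). Its relative Cd6 differed by 1.71 on the brighter of its probe sets (limma adjusted p = 0.24), and the costimulatory receptor gene Cd28 by 1.13 (0.236). The death receptor gene Fas was at 187.8 and 224.2 against 438.1 and 436.2 (-1.03, limma adjusted p = 0.424).

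The remaining rises were in genes that are less often studied in thymocytes. Basp1 encodes a membrane-bound protein of growing axons and stood at 5840.6 and 4897.9 against 682.3 and 1553.3 (2.36 ± 0.37 SE, limma adjusted p = 0.0407). A second Basp1 probe set differed by 1.16 without passing. Crybg1 stood at 628.3 and 847.3 against 219.9 and 193.1 (1.74 ± 0.27), and Dipk2a at 1846.5 and 2357.9 against 590.5 and 851.7 (1.53 ± 0.26). In each of these 3 genes both Vbeta5 arrays exceeded every array of the other groups. Among genes with an adjusted p from 0.05 to 0.10, the epoxide hydrolase gene Ephx1 had the largest difference, 2.99 ± 0.57 (SE), at 899.5 and 865.9 against 62.8 and 143.3.

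Basp1 belonged to the list of the actin cytoskeleton and adhesion to membranes, in which 1 of 41 tested genes was higher, 0 were lower and 40 did not pass (median 0.245). Several actin-binding proteins lay just outside the threshold. Lcp1, the leukocyte actin bundler plastin, stood at 4543.4 and 4435.0 against 1439.0 and 1776.8 (1.48, limma adjusted p = 0.0526), though its dimmer second probe set differed by -0.21. The tropomyosin gene Tpm4 differed by 1.83 and the calponin gene Cnn2 by 1.58, each with a limma adjusted p of 0.0526. Unadjusted, 8 genes of the list had a p under 0.05 and a higher signal and 4 a lower one. The shares over all probe sets tested were 4.08% and 4.11%.

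**Figure D3:**
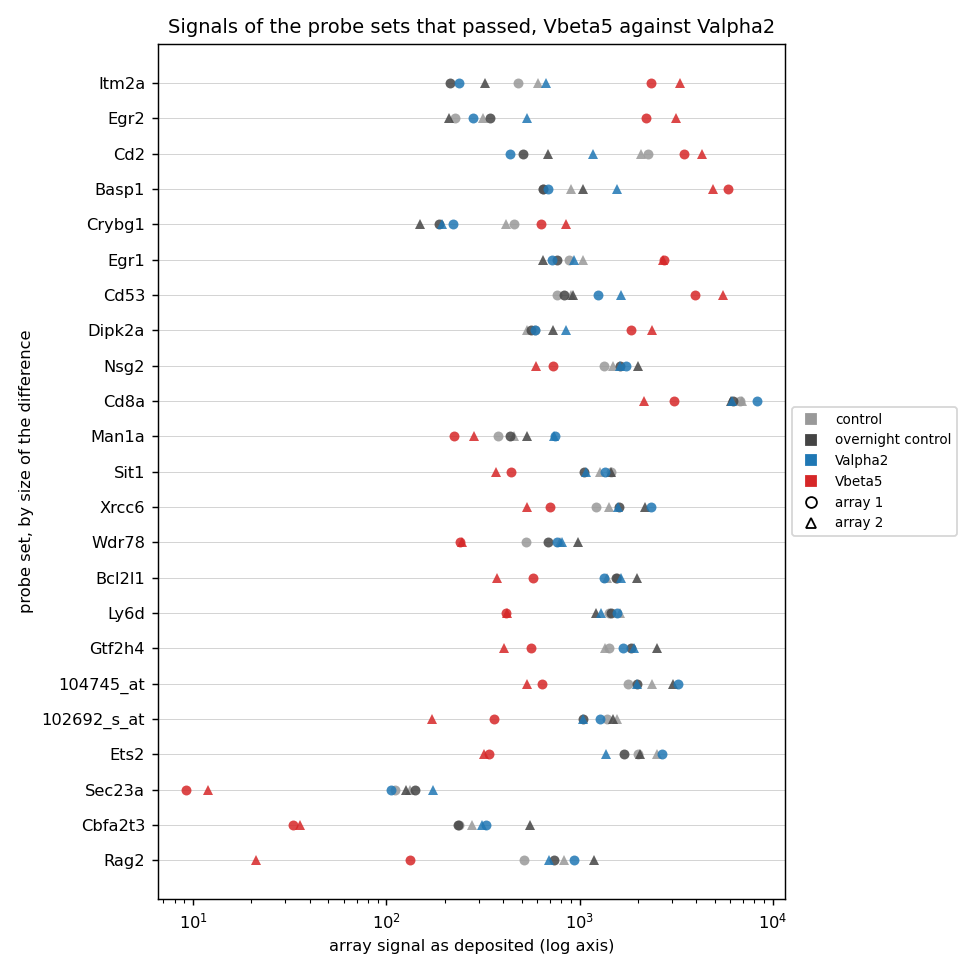
Signal of the 23 probe sets that passed on all 8 arrays (log axis), coloured by group, with circles for array 1 and triangles for array 2, ordered by the log2 difference of Vbeta5 minus Valpha2. Both red Vbeta5 points lie beyond all other points in each row, and the blue Valpha2 triangle lies to the right of the Valpha2 circle in 7 of the 8 upper rows.

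The genes lowered with Vbeta5 began with those that make the double positive stage. Rag2, the smaller partner of the V(D)J recombinase, had signals of 133.0 and 21.2 with Vbeta5 and 931.1 and 692.3 with Valpha2. Its difference of -3.44 ± 0.54 (SE) was the largest of all probe sets tested on the log2(signal + 17) scale, an order that depends on the offset for dim signals (limma adjusted p = 0.0407), and the Vbeta5 arrays differed more from each other than the Valpha2 arrays did. Rag1, the catalytic partner, stood at 3361.7 and 1840.3 against 11783.5 and 9392.4, and just missed the threshold (-2.07, limma adjusted p = 0.0547). A second, dim Rag1 probe set differed by 0.28. Terminal transferase, encoded by Dntt, adds untemplated bases at the joins, and its 3 probe sets differed by -1.78, -1.64 and -1.65 without passing (limma adjusted p = 0.122 to 0.448). Xrcc6, a subunit of the Ku complex that holds broken ends for joining, did pass: it stood at 701.8 and 535.4 against 2338.2 and 1576.8 (-1.62 ± 0.27 SE). Of 13 tested genes of recombination and end joining 2 were lower, 0 higher and 11 did not pass, with a median of -0.25.

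Ets2, an Ets family transcription factor, had the smallest p of the comparison. It stood at 340.0 and 321.5 with Vbeta5 against 2669.7 and 1361.7 with Valpha2 (-2.47 ± 0.30 SE, limma adjusted p = 0.0284). Of 13 tested Ets family genes it alone passed. Ly6d, a small surface protein of early lymphocytes, stood at 417.6 and 421.4 against 1563.3 and 1284.3 (-1.72 ± 0.22). Cd8a, one chain of the CD8 coreceptor, stood at 3067.4 and 2143.0 against 8257.1 and 6137.8 (-1.47 ± 0.24). The partner chain Cd8b1 differed by -1.34 (limma adjusted p = 0.137) and Cd4 by -1.11 (0.327), at 1122.7 and 680.1 against 1527.6 and 2365.2. Bcl2l1 encodes Bcl-xL, the survival factor on which double positive cells depend, and stood at 576.3 and 374.5 against 1334.4 and 1638.8 (-1.63 ± 0.26). Of 29 tested genes of the stage 5 were lower, 0 higher and 24 did not pass, with a median of -0.455. Their arrays did not overlap in the lower direction in 18 of 29, against 18.6% of all probe sets tested, and in the higher direction in 4 of 29, against 21.8%. The list was chosen with earlier results of these data known, so these shares add no separate evidence.

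Bcl6 and Ptcra of this list did not pass. Bcl6, a repressor, stood at 1567.6 and 1985.3 against 1849.6 and 1555.5, with an interval of the difference from -0.50 to 0.61. The pre-TCR gene Ptcra differed by -0.50 (limma adjusted p = 0.868), with both Vbeta5 arrays under both Valpha2 arrays. Bcl2, the survival factor that replaces Bcl-xL as thymocytes mature, had 3 probe sets at 1.74, 1.16 and 0.83, none of which passed (limma adjusted p = 0.24 to 0.419). Bcl2l11, which encodes the death factor Bim, differed by 0.23, 0.14 and 0.17 on 3 probe sets, and the brightest had an interval from -0.38 to 0.84. Of 25 tested Bcl2 family and death genes 1 was lower (Bcl2l1), 0 higher and 24 did not pass, with a median of -0.137.

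Lineage transcription factors split. Cbfa2t3, a corepressor that works with E proteins, stood at 32.7 and 35.8 with Vbeta5 against 327.9 and 313.8 with Valpha2, and all 4 control and overnight control arrays were at 234.4 or above (-2.72 ± 0.39 SE, limma adjusted p = 0.0349). Its second probe set differed by -1.80 without passing. The E protein gene Tcf12 stood at 2063.3 and 3081.2 against 5502.1 and 5475.2 (-1.12, limma adjusted p = 0.198). Lef1, a Wnt-responsive factor of T cell development, went the other way on both of its probe sets, at 1.11 and 1.68, as did Gata3, which favours the CD4 lineage, at 1.07, and the E protein inhibitor Id3 at 0.71. None of these passed (limma adjusted p = 0.113 to 0.348). Runx1 differed by -0.01, with a wide interval from -1.40 to 1.39. Of 29 tested genes 1 was lower, 0 higher and 28 did not pass, and the median was -0.00551.

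The other lowered genes were of several kinds. Sit1, a membrane adaptor that dampens TCR signalling, stood at 443.5 and 370.3 against 1359.7 and 1078.3 (-1.54 ± 0.24 SE, limma adjusted p = 0.0407). Pag1, an adaptor that recruits the inhibitory kinase Csk, stood at 708.7 and 565.0 against 1879.3 and 1349.0, just outside (-1.31, limma adjusted p = 0.0702). Gtf2h4, a subunit of the transcription and repair factor TFIIH, stood at 562.0 and 405.5 against 1682.4 and 1902.4 (-1.87 ± 0.24). Man1a, a Golgi mannosidase that trims N-glycans, stood at 223.6 and 282.9 against 746.9 and 738.4 (2.83-fold, limma adjusted p = 0.0454). The Valpha2 arrays of Man1a lay above every control and overnight control array, of which the highest was 531.8, and the Vbeta5 arrays below all of them. A dimmer second Man1a probe set differed by -0.44. Nsg2, a vesicle protein studied in neurons, differed by -1.33 ± 0.22 and Wdr78, a dynein-associated protein of cilia, by -1.63 ± 0.27.

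Sec23a, a coat protein of vesicles leaving the endoplasmic reticulum, stood at 9.2 and 11.9 with Vbeta5 against 105.8 and 173.8 (-2.48 ± 0.41 SE, limma adjusted p = 0.0447). The Vbeta5 signals lay under the offset of 17, so the size depends on the offset, and a brighter Sec23a probe set differed by -0.76 (347.8 and 327.5 against 533.7 and 640.2). Of the 15 lowered probe sets 2 have no single gene name in the annotation. Among genes with an adjusted p from 0.05 to 0.10 on the lower side were the endoribonuclease gene Endou (-1.87), the ubiquitin ligase gene Rmnd5a (-1.29), the sphingolipid desaturase gene Degs1 (-1.64), Ssbp2 (-1.23), the microtubule protein gene Map4 (-1.58), Cdca7 (-1.19) and Mns1 (-1.31). The lower side also held Cd79b, the B cell receptor chain gene, at 106.3 and 111.6 against 381.3 and 373.9 (-1.65).

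Taking an adjusted p under 0.10, 57 probe sets qualified (0.688%), 24 higher (0.29%) and 33 lower (0.399%). These probe sets were chosen on the same arrays, so the places of the Valpha2 arrays within them are not independent of that choice. Within these probe sets the 2 Valpha2 arrays held different places. Valpha2 array 2 lay above both overnight control arrays in 20 of the 24 higher probe sets, and Valpha2 array 1 in 8 of 24, where 23.3% and 27.7% of all tested probe sets did so. On the lower side Valpha2 array 2 lay below both overnight control arrays in 15 of 33 and Valpha2 array 1 in 4 of 33, against 26.1% and 27.8% of all tested. Among those that passed 0.05, Valpha2 array 2 lay above Valpha2 array 1 in 7 of 8 higher and 4 of 15 lower probe sets, and in 47.1% of all tested. Nfatc1, Nr4a1, Nab2, Cd5, Itm2a and Cd2 each stood over 2-fold higher on Valpha2 array 2 than on Valpha2 array 1, as the values above show. Valpha2 array 1 is the array with the Gapdh value of 1.72, and the part of RNA quality in this gap was not tested.

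Within each array number the direction held for every probe set that passed. Among the arrays numbered 1, all of the male pattern, 8 of 8 higher and 15 of 15 lower probe sets differed by 2-fold or more, with medians of 2.40 and -1.71. Among the arrays numbered 2, where the Vbeta5 array had the female pattern and the Valpha2 array the male one, the same 8 and 15 did so, with medians of 1.80 and -1.86. Of all tested probe sets 7.54% were 2-fold or more higher and 6.47% lower among the arrays numbered 1, and 4.56% and 3.57% among those numbered 2. Without Vbeta5 array 2, which leaves 3 arrays of the male pattern, the medians were 1.98 and -1.64 and all 23 stayed at 2-fold or more, with limma adjusted p-values from 0.297 to 0.465. Without Valpha2 array 1 all 23 stayed at 2-fold or more as well, with limma adjusted p-values from 0.312 to 0.53. The 3 arrays of the male pattern are among the 4 compared. Both fits also kept the control and overnight control arrays, and those numbered 2 had the female pattern. Since the 23 were chosen on these same arrays, the values without an array show its share and add no separate evidence.

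**Figure D4:**
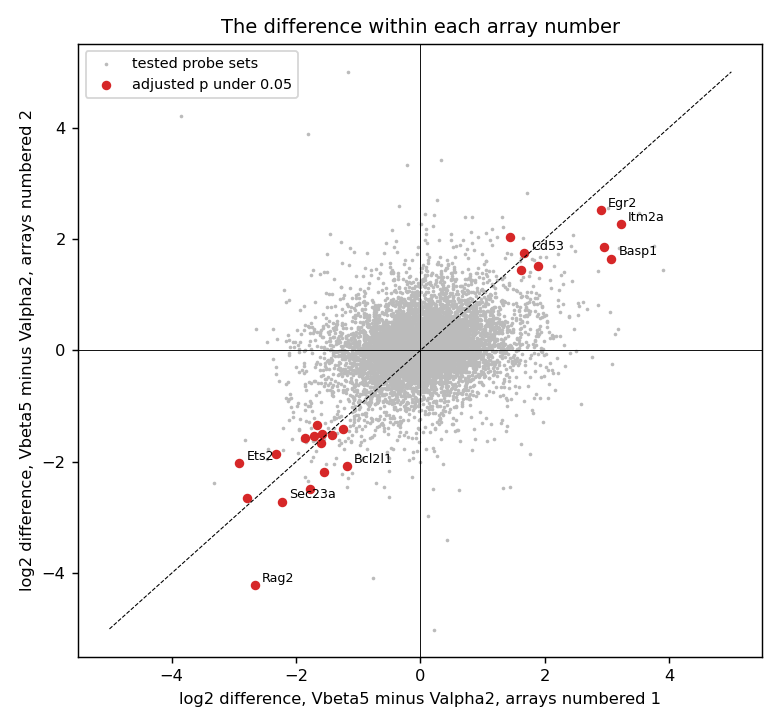
Log2 difference of Vbeta5 minus Valpha2 among the arrays numbered 1 (x axis) and among those numbered 2 (y axis) for each tested probe set, with the 23 that passed in red and a dashed line of equal differences. All red points lie below 0 on both axes or above 0 on both; Itm2a and Basp1 differ more among the arrays numbered 1 and Rag2 and Bcl2l1 more among those numbered 2.

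Cytokine signalling and the response to interferon were mixed. Of 35 tested cytokine receptor and Socs genes 0 passed by limma and 8 had an unadjusted p under 0.05. Over all probe sets tested 8.19% had such a p, 4.08% on the higher side and 4.11% on the lower. Socs3, an inhibitor of cytokine signalling, had 1 probe set at 12.2 and 10.1 against 118.0 and 76.9 and a brighter one at 92.6 and 15.8 against 245.6 and 136.1, neither of which passed (limma adjusted p = 0.192 and 0.418). The kinase gene Jak3 differed by 1.27 and Tyk2 by 1.68. Of 26 interferon response genes 0 passed by limma, 5 were higher at an unadjusted p under 0.05, and the median was 0.14. Irf1, a transcription factor induced by interferon and by TCR signals, stood at 1063.3 and 1365.9 against 200.8 and 503.3 (1.86, limma adjusted p = 0.0898). Gbp2 differed by 1.15 (0.132 by limma), while Irgm1 was far higher on Vbeta5 array 2 than on Vbeta5 array 1, at 658.4 and 155.0, against 87.4 and 110.8 with Valpha2. Of 29 genes of MHC class I and the proteasome 0 passed by limma, 7 were higher at an unadjusted p under 0.05 and 0 lower. The immunoproteasome genes Psmb9 and Psmb10 differed by 0.96 and 0.91.

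No cell cycle gene of the list passed. For the counts that follow, 8.19% of all probe sets tested had an unadjusted p under 0.05 by limma. Of 42 tested cell cycle genes 0 passed by limma, 2 had an unadjusted p under 0.05 (Mcm5 at 0.87 and Cdk4 at 0.61, the latter 0.73 on a second probe set), and the median was 0.0036. Of 50 tested oxidative phosphorylation genes 0 passed and 0 had an unadjusted p under 0.05 by limma, with a median of -0.0688. Of 31 Myc and nucleolar growth genes 0 passed by limma and 2 had an unadjusted p under 0.05, with a median of 0.141. Of 14 homing genes 0 passed by limma and 5 had an unadjusted p under 0.05. The semaphorin receptor gene Plxnd1, known for guiding double positive cells after selection, stood at 864.0 and 365.5 against 1988.9 and 2085.0 (-1.82, limma adjusted p = 0.102). The clock genes Nr1d2 and Dbp differed by -1.70 and -1.51 and Per1 by 1.57, with 0 of 14 clock genes past the threshold by limma and 3 at an unadjusted p under 0.05.

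**Figure D5:**
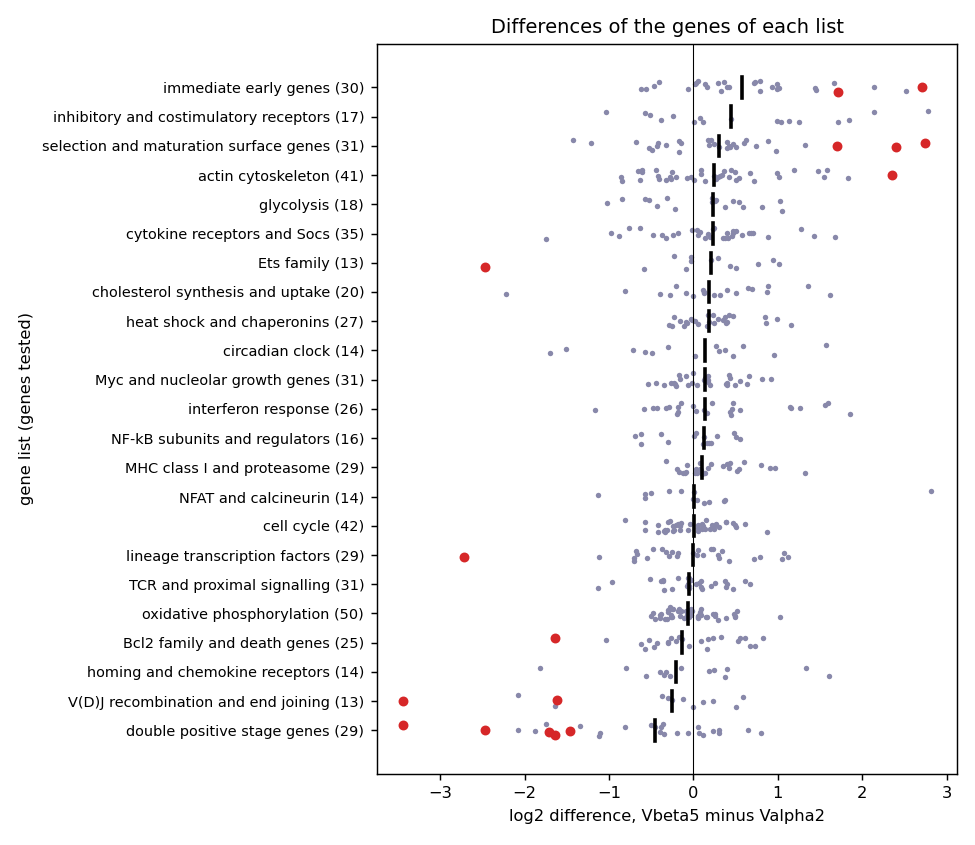
Log2 difference of Vbeta5 minus Valpha2 for the tested genes of 23 lists, 1 point per gene (its brightest probe set), with a black bar at the median of the list and red points for genes that passed. Immediate early genes have the highest median, 0.573, and double positive stage genes the lowest, -0.455; 8 lists hold a red point and 15 hold none. The lists were chosen with earlier results of these data known.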

How the data were processed

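Total RNA was measured on 8 arrays with Affymetrix-type probe sets. The authors deposited 1 table of signal intensity per probe set, called normalized per the labels; the sources used here do not name the software or the method. The trimmed mean was 250.14 to 250.16 on every array. Control probe sets (66) were left out, leaving 12422. With log2(intensity + 17), where 17 is the 20th percentile of positive values, the dimmest 33.3% were dropped and 8281 tested with limma 3.58.1 in R 4.3.3: a group-means model over 8 arrays, moderated by eBayes along the intensity trend (degrees of freedom 4 residual, 6.328 prior), Benjamini-Hochberg threshold 0.05, two-sided. An exact permutation test of 2 against 2 cannot go below p = 0.333. The number of arrays limits the precision. The fit was tested on simulated data.

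Gene symbols are those of the array platform, matched to RefSeq (GRCm38.p6) where possible: 10833 probe sets had 1 symbol, 396 several and 1193 none. A list gene is represented by its brightest tested probe set. Named are all genes that passed. Others came from up to 10 a direction with a limma adjusted p of 0.05 to 0.10. Each list also gave its 4 smallest p-values and its largest difference. A fixed set of 34 genes, of which 27 were tested, completed the choice. Some of these other genes are left out of the text. Earlier results of these data were known when the lists and named genes were chosen and when the arrays were taken by their titles. Array numbers were not stated to pair samples and were not used as pairs.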

Additional observations from a re-analysis of the deposited data

How the results depend on the processing

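The comparison gave 23 probe sets past the threshold (8 higher, 15 lower). The count was 22 to 24 with quantile normalization, the halved offset or a floor, 21 without the dimmest 50%, and 16 with no filter, where 9 were lower. It was 0 at a common median (552 probe sets with an unadjusted p under 0.05 by limma), 0 with eBayes without the trend (631) and 0 in a fit of the 4 arrays alone (782). Leaving out each array in turn gave 0 to 31 in all, 0 to 18 higher and 0 to 18 lower. With the array number as a replicate block it was 90 (39 higher, 51 lower) over 8 arrays and 338 (178 higher, 160 lower) over the 4, and all 23 were among both. Vbeta5 and Valpha2 arrays of the same number deviated together (r = 0.211 across probe sets), a hint from the data only. Without the 3 arrays numbered 1 of overnight control, Valpha2 and Vbeta5, a setting chosen after seeing the data, it was 41 (17 higher, 24 lower), 14 of the 23 among them. Of the 23, 0 changed sign under any of these. Where settings differ, the cause was not tested. Between 12.24% and 24.72% of signals on an array lay under 17, where sizes depend on the offset.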

Other observations

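Sterol and sugar metabolism held several differences that did not pass. Of 20 tested genes of cholesterol synthesis and uptake 0 passed by limma, with 4 higher and 2 lower at an unadjusted p under 0.05. Among all probe sets tested 8.19% had such a p, 4.08% on the higher side and 4.11% on the lower. The synthesis genes Cyp51 (174.8 and 121.0 with Vbeta5 against 27.5 and 46.5 with Valpha2) and Idi1 (311.9 and 512.2 against 148.4 and 142.1) differed by 1.61 and 1.36. The sterol exporters went the other way: Abca1 stood at 12.1 and 9.0 against 189.3 and 62.3, although a second Abca1 probe set differed by -0.41, and Abcg1 stood at 562.4 and 446.8 against 988.8 and 811.0 (-0.82). By limma, their adjusted p ran from 0.192 to 0.267. In glycolysis the lactate dehydrogenase gene Ldhb stood at 743.1 and 728.9 against 1998.8 and 1136.7 (-1.02) while Ldha differed by 0.81, and 0 of 18 genes passed by limma, with 3 at an unadjusted p under 0.05. Of 27 heat shock and chaperonin genes 0 passed by limma and 3 were higher at an unadjusted p under 0.05, led by Hsph1 at 1.16.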
